A study of Mus musculus with 15 samples.

Results

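The miR-99/100 family comprises miR-99a, miR-99b and miR-100, and 4 of the 396 mature miRNAs listed in a mouse midbrain small RNA sequencing table belong to it. They were found by name, as every listed arm of those 3 miRNAs: mmu-miR-99a-5p, mmu-miR-100-5p, mmu-miR-99b-5p and mmu-miR-99b-3p, written below without the species prefix. The opposite arms miR-99a-3p and miR-100-3p are not in that table and were not analysed here. The samples were midbrain total RNA of C57BL/6 mice aged 6 months, in a group of 8 wild-type samples (WT, replicates 1 to 8) and a group of 7 samples with the genotype A30P alpha-synuclein +/+ (A30P, replicates 1, 2, 3, 4, 6, 7 and 8). Alpha-synuclein is a protein of presynaptic terminals, and its A30P form was found in familial Parkinson's disease. Which promoter or locus carries the A30P form was not stated in the labels. The groups share strain, tissue and age. Separate animals per sample are not stated either, and the p-values reflect only the spread among these samples, some of which may be technical.

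A miRNA is a short RNA that guides Argonaute proteins to messenger RNAs, and its seed, bases 2 to 8 from its 5′ end, largely decides which ones. The miR-99/100 family is an old one, related to miR-10, and its reported targets include the growth regulator mTOR. Each member is made as the first hairpin of a polycistron, a shared primary transcript that also carries a let-7 hairpin and a miR-125 hairpin. The let-7 and miR-125 families are abundant in the brain and are known for promoting differentiation. The level of each mature arm depends on transcription of the polycistron, on how each hairpin is cut and on how long each arm lasts.

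The mature sequences of the 4 listed arms show which ones can be read as a single targeting family. They are RefSeq sequences (GRCm38.p6), with the seed in capitals:
miR-99a-5p: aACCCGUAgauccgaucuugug
miR-100-5p: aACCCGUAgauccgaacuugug
miR-99b-5p: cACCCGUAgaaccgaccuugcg
miR-99b-3p: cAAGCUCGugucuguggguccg
The 3 arms from the 5′ side of their hairpins have the same seed, ACCCGUA, and are all 22 bases long. Counting from 1 at the 5′ end of miR-99a-5p, miR-100-5p differs from it by U16A alone. miR-99b-5p differs from miR-99a-5p by A1C, U11A, U16C and U21C. Reads of miR-99a-5p and miR-100-5p can therefore be told apart at a single base, and how the authors' counting treated mismatches is not known from the labels or headers. miR-99b-3p comes from the other strand of the miR-99b hairpin and has an unrelated seed.

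The let-7 and miR-125 partners are shown because each polycistron repeats the same 3 seeds, so that its members can be compared like with like:
let-7c-5p: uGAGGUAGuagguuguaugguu
let-7e-5p: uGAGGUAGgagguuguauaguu
let-7a-5p: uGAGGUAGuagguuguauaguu
miR-125b-5p: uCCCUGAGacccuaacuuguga
miR-125a-5p: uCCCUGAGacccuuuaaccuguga
Relative to let-7a-5p, let-7c-5p carries A19G and let-7e-5p carries U9G. miR-125b-5p is made from hairpins in both the Mir99a and the Mir100 polycistron, and let-7c-5p and let-7a-5p each have further hairpins elsewhere, so their reads cannot be assigned to a single locus.

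On GRCm38 with GENCODE annotation, Mir99a lies on chromosome 16 at 77598936 to 77599000, plus strand, in an intron of the long non-coding gene Mir99ahg. Mirlet7c-1 follows 656 bases downstream and Mir125b-2 lies a further 46522 bases on, in the same host. Mir99b lies on chromosome 17 at 17830188 to 17830257, plus strand, in an intron of the protein-coding gene Spaca6. Its partners are close, with Mirlet7e 94 bases downstream and Mir125a 367 bases further, in an exon of Spaca6, and the 3 hairpins span 692 bases. Mir100 lies on chromosome 9 at 41531425 to 41531504, plus strand, in an intron of 3110039I08Rik, with Mirlet7a-2 5211 bases downstream and Mir125b-1 45114 bases after that. The submitters' processing notes name mm9, and the table holds no coordinates, so these positions describe the loci only.

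The libraries differed in depth between the groups. Reads assigned to listed miRNAs ran from 724813 to 9762286 in WT and from 21731 to 3500431 in A30P, and 4 A30P libraries (1, 2, 4 and 7) held under 100000. A pair of miRNAs outside the family, miR-148a-3p and miR-151-3p, took 13.9% to 80.1% of listed reads in A30P and 0.842% to 2.51% in WT. In the column headers every WT library carries the letter C and every A30P library the letter D, a tag that no label explains, so it and the genotype cannot be told apart. Values below are normalized counts, the authors' reads divided by a size factor per library, and a single read was worth between 0.0848 and 56.4 of them. In bulk tissue, fewer cells of a type and less RNA per cell cannot be told apart.

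In A30P midbrain, by normalized counts, the family fell in the arm most abundant in WT and rose in its miR-99b arms. The rise of miR-99b-5p depended on the scaling. By limma on log2(normalized count + 1), with Benjamini-Hochberg adjustment over all 396 miRNAs, miR-99b-5p and miR-99b-3p rose and miR-99a-5p and miR-100-5p fell. Of all listed miRNAs, 8.33% were called higher and 71.0% lower, so a fall was the common outcome and a rise the rarer one. By edgeR with TMM scaling on the recovered reads, the same 2 miR-99b arms rose and miR-99a-5p fell, while miR-100-5p was not called, against a background of 19.5% higher and 35.5% lower among 318 miRNAs tested. Higher calls made up 10.5% of all calls by limma and 35.4% by edgeR with TMM scaling. The median log2 fold change over all miRNAs was -2.57, and the 4 members had percentiles of 51.5 (miR-99a-5p), 77.5 (miR-100-5p), 90.4 (miR-99b-5p) and 94.7 (miR-99b-3p) among them. TMM scaling before limma moved that median up by 0.74.

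**Figure D1:**
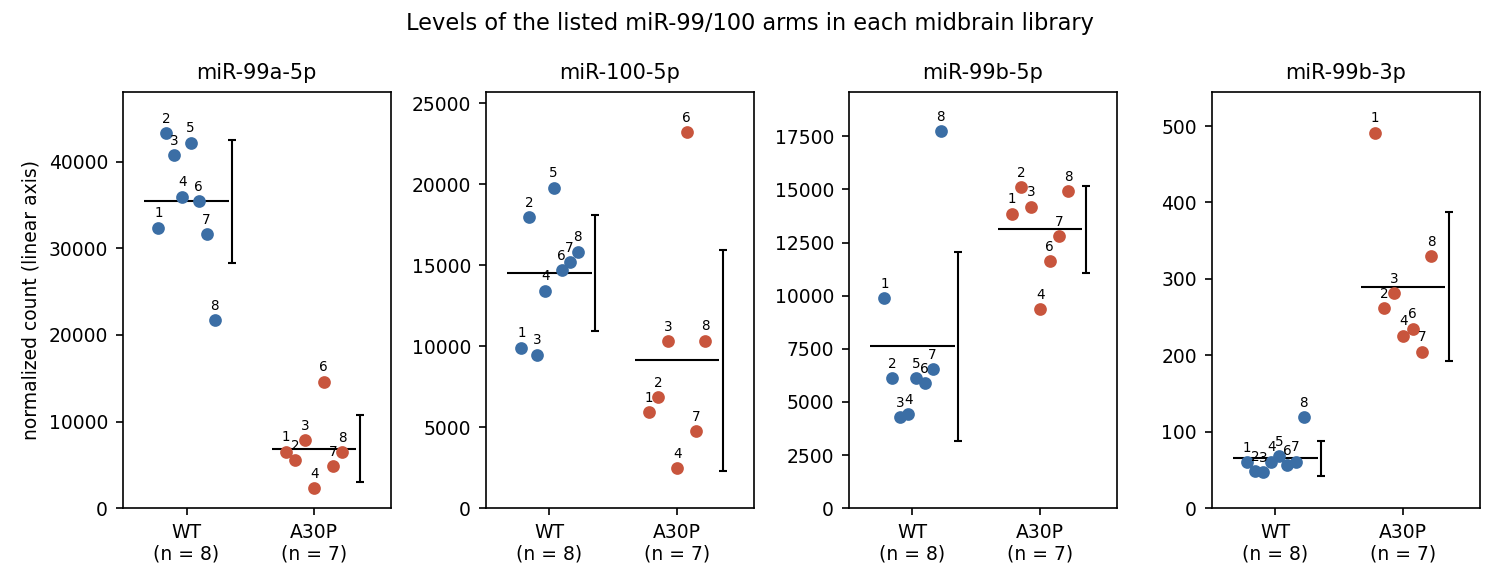
Normalized counts (linear axes) of the 4 listed miR-99/100 arms, 1 point per library labelled with its replicate number, with the group mean as a line and the SD as a bar. WT (n = 8) and A30P (n = 7) libraries do not overlap for miR-99a-5p or miR-99b-3p, while the groups overlap for miR-100-5p and, through WT 1 and WT 8, for miR-99b-5p.

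miR-99a-5p was the leading member of the family in WT midbrain. The 8 WT libraries held 21664 to 43256 normalized counts (median 35666) and the 7 A30P libraries 2314 to 14615 (median 6451). Every A30P library lay below every WT library, a pattern seen in the lower direction for 23.7% of listed miRNAs. The mean was 35392 ± 7055 (SD, n = 8) in WT and 6870 ± 3832 (SD, n = 7) in A30P, 5.15-fold lower. The log2 fold change was -2.52 (SE 0.31, limma adjusted p = 1.6e-06), close to the median of all miRNAs with 1 added to each value. That closeness depended on the setting. Relative to the median of the same fit, the value was 1.82 with 0.1 added and -1.44 with 10 added. It was 0.44 with TMM scaling before limma, -0.51 by edgeR with TMM scaling and -0.79 by DESeq2. The authors' deposited table gave a log2 fold change of -1.27 with an adjusted p of 0.0029, and edgeR with TMM scaling gave -1.26 (adjusted p = 0.012). The direction was the same at each setting tried.

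As a share of listed reads, miR-99a-5p was 5.10% ± 0.38 in WT and fell to 0.772% ± 0.769 in A30P (SD, n = 8 and n = 7). The WT shares were narrow, from 4.33% to 5.54%, and the A30P shares ran from 0.189% to 2.40%. The shares did not overlap, which was so in the lower direction for 30.8% of miRNAs and in the higher direction for 2.53%. An exact permutation test, two-sided and adjusted over all 396 miRNAs, gave an adjusted p of 0.00093, with 6.31% of miRNAs called higher and 71.2% lower by this test. Its rank among the miRNAs of a library was 5 to 7 in WT and 9 to 27 in A30P. With miR-148a-3p and miR-151-3p left out of the total, the share was 5.16% ± 0.39 in WT and 1.73% ± 0.63 in A30P. On that total the lowest WT share was 4.38% and the highest A30P share 2.78%. How many of all miRNAs were also without overlap on that total was not counted. In the shallowest library, A30P 4, its share rested on 41 reads, with a 95% Wilson interval of 0.139% to 0.256% that covers counting error only.

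miR-100-5p, which differs from miR-99a-5p by a single base, was lower in A30P by a smaller and less stable margin. The 8 WT libraries held 9480 to 19773 normalized counts (median 14927) and the 7 A30P libraries 2483 to 23186 (median 6853). The groups overlapped, and A30P 6 was above all WT libraries while 4 A30P libraries were below them all. The mean was 14526 ± 3580 (SD, n = 8) in WT and 9122 ± 6820 (SD, n = 7) in A30P, with a log2 fold change of -0.94 (SE 0.37, limma adjusted p = 0.027). The call was lost without the 4 shallow A30P libraries, where the log2 fold change was -0.063 (adjusted p = 0.90), and edgeR with TMM scaling gave a positive value of 0.39 (adjusted p = 0.46). It was also lost when A30P 1, A30P 4 or A30P 7 was left out (adjusted p of 0.050, 0.072 and 0.062). The authors' deposited table gave 0.57 with an adjusted p of 0.31.

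The share of miR-100-5p was 2.18% ± 0.79 (SD, n = 8) in WT and 1.07% ± 1.27 (SD, n = 7) in A30P, a difference that missed the threshold (exact permutation test, adjusted p = 0.074). Without A30P 6 the difference widened to -1.57 percentage points (adjusted p = 0.0022). With miR-148a-3p and miR-151-3p left out of the total the shares were 2.21% and 2.24% (adjusted p = 0.96).

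miR-99b-5p moved the other way from miR-99a-5p. The 8 WT libraries held 4283 to 17748 normalized counts (median 6115) and the 7 A30P libraries 9369 to 15092 (median 13860). WT 8 was above every A30P library and WT 1, at 9885, lay within the A30P range, while the other 6 WT libraries lay below all of A30P. The mean was 7620 ± 4439 (SD, n = 8) in WT and 13123 ± 2052 (SD, n = 7) in A30P. The log2 fold change was 0.92 (SE 0.30, limma adjusted p = 0.0080), and 1.24 (adjusted p = 8.3e-05) without WT 1 and WT 8. The call was lost without the 4 shallow A30P libraries (0.98, adjusted p = 0.060) and when libraries were scaled by their listed reads (0.24, adjusted p = 0.61). The authors' deposited table gave a log2 fold change of 0.18 with an adjusted p of 0.80.

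The shares show how far that rise depends on the total used. miR-99b-5p took 1.30% ± 1.26 (SD, n = 8) of listed reads in WT, against 1.26% ± 0.48 (SD, n = 7) in A30P (exact permutation test, adjusted p = 0.996). With miR-148a-3p and miR-151-3p left out of the total it took 1.32% ± 1.29 in WT and 3.54% ± 0.65 in A30P (adjusted p = 0.0071). Its rank was 6 to 35 in WT (median 23) and 7 to 11 in A30P (median 10).

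miR-99b-3p, the opposite arm of the miR-99b hairpin, was the member with the largest rise and the fewest reads. The 8 WT libraries held 46.7 to 119 normalized counts (median 60.7) and the 7 A30P libraries 205 to 491 (median 261). All 7 A30P libraries were above the highest WT library, which held in the higher direction for 4.04% of listed miRNAs. The mean was 65.0 ± 22.8 (SD, n = 8) in WT and 290 ± 97.8 (SD, n = 7) in A30P, 4.46-fold higher. The log2 fold change was 2.14 (SE 0.53, limma adjusted p = 0.0014), the authors' deposited table gave 1.69 with an adjusted p of 0.00029, and edgeR with TMM scaling gave 3.09 (adjusted p = 1.6e-05). In A30P 4 and A30P 7 it rested on 4 reads each, against at least 75 in each WT library.

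The share of miR-99b-3p was 0.0105% ± 0.0075 (SD, n = 8) in WT and 0.0278% ± 0.0122 (SD, n = 7) in A30P (exact permutation test, adjusted p = 0.013). The shares overlapped because WT 8 reached 0.0286%, above 3 of the A30P libraries. The 4 reads in A30P 4 allow a share between 0.00716% and 0.0473% (95% Wilson interval). Without the 4 shallow A30P libraries the log2 fold change of its normalized count was 2.14 (limma adjusted p = 0.0010).

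The arm with the most reads of the shared seed was miR-99a-5p in WT and, in all but 1 library, miR-99b-5p in A30P. In WT, miR-99a-5p supplied 39.2% to 74.7% of the reads of the 3 arms with the seed ACCCGUA (mean 61.5% ± 10.1, n = 8). In A30P it supplied 16.3% to 29.6% (mean 22.4% ± 4.24, n = 7), below every WT library. miR-99b-5p supplied 13.5% ± 8.34 in WT and 49.3% ± 13.5 in A30P, and miR-100-5p supplied 25.1% ± 4.48 and 28.2% ± 9.89. miR-99a-5p led in 8 of 8 WT libraries. miR-99b-5p led in 6 of 7 A30P libraries, and in A30P 6, the deepest of that group, miR-100-5p led with 46.9%.

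**Figure D2:**
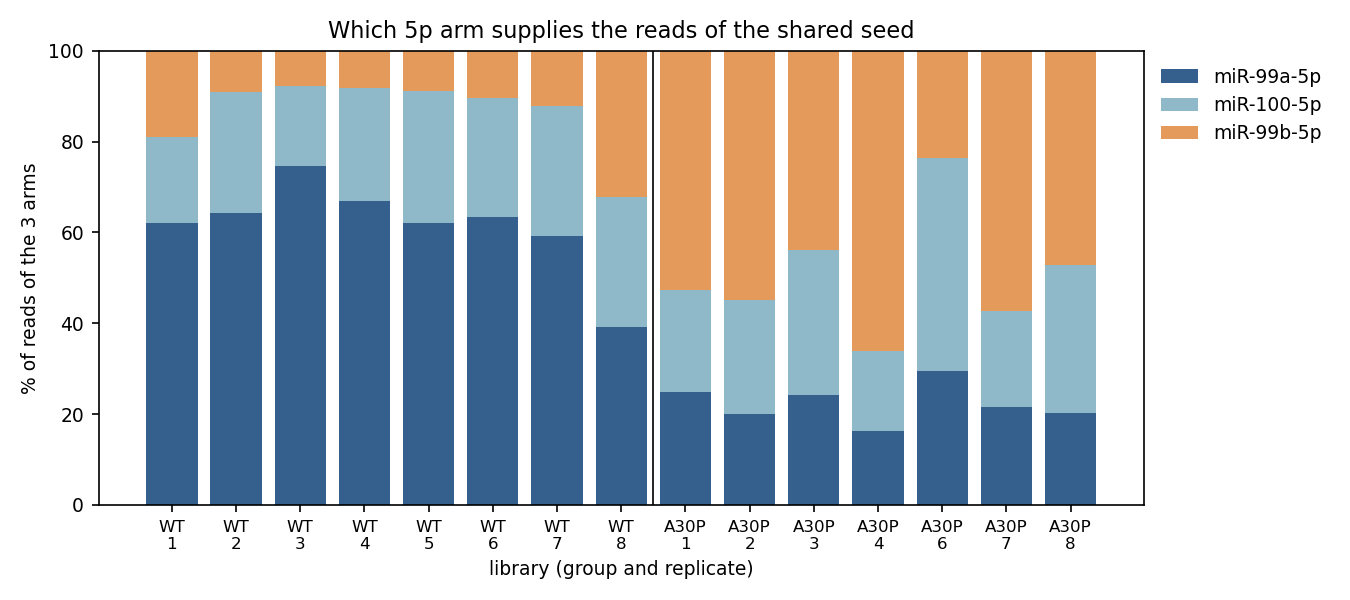
Percent of the reads of miR-99a-5p, miR-100-5p and miR-99b-5p that each arm supplied, 1 stacked bar per library. miR-99a-5p is the widest block in all 8 WT bars and supplies 16.3% to 29.6% in the 7 A30P bars, where miR-99b-5p is widest in all but A30P 6.

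The order of the 3 arms was also read library by library, and it had exceptions in both groups. In WT, miR-99a-5p was above miR-100-5p in 8 of 8 libraries, and miR-100-5p was above miR-99b-5p in 7 of 8, with WT 1 nearly level at 12263 and 12257 reads. In A30P, miR-99b-5p was above miR-100-5p in 6 of 7 libraries, and miR-100-5p was above miR-99a-5p in 5 of 7. The last pair was nearly level in A30P 7, with 94 reads of miR-99a-5p and 93 of miR-100-5p, and in A30P 4, with 41 and 44.

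Taken as a sum, the 3 arms held 57538 ± 6385 normalized counts in WT and 29115 ± 10868 in A30P, from 52154 to 68071 and from 14167 to 49416. Their share of listed reads was 8.58% ± 2.10 in WT and 3.10% ± 2.45 in A30P. With miR-148a-3p and miR-151-3p left out of the total, the sum was 8.70% ± 2.19 and 7.51% ± 1.59, and the groups overlapped.

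Ratios of reads within a library do not depend on how libraries were scaled. Of the 6 ratios set for the family, each passed an exact permutation test, two-sided, after Benjamini-Hochberg adjustment over the 6. The smallest p this test can give is 0.00031. There were 4 further ratios with miR-100-5p, which were added after the table was opened and adjusted over all 10, and 3 of them passed. How many ratios between other miRNAs would pass or separate the groups was not examined. These counts are therefore not shown to be particular to the family. Among the 93 hairpins with both arms listed, limma called 30.1% of 5p to 3p ratios higher and 30.1% lower.

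The ratio of miR-99a-5p to miR-99b-5p ran from 1.22 to 9.50 in WT and from 0.249 to 1.26 in A30P. The groups met only where WT 8 (1.22) fell below A30P 6 (1.26). The geometric mean was 5.08 in WT and 0.467 in A30P, a log2 difference of -3.44 (exact permutation test, adjusted p = 0.00093). miR-99a-5p also lost ground to miR-100-5p, from a geometric mean of 2.46 to 0.820 (log2 difference -1.58, exact permutation test, adjusted p = 0.00062). Those groups did not overlap, with 1.37 as the lowest WT ratio and 1.10 as the highest A30P ratio. The ratio of miR-100-5p to miR-99b-5p fell from 2.07 to 0.570 (log2 difference -1.86, exact permutation test, adjusted p = 0.0023), and missed the threshold without the 4 shallow A30P libraries (-1.04, adjusted p = 0.067).

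**Figure D3:**
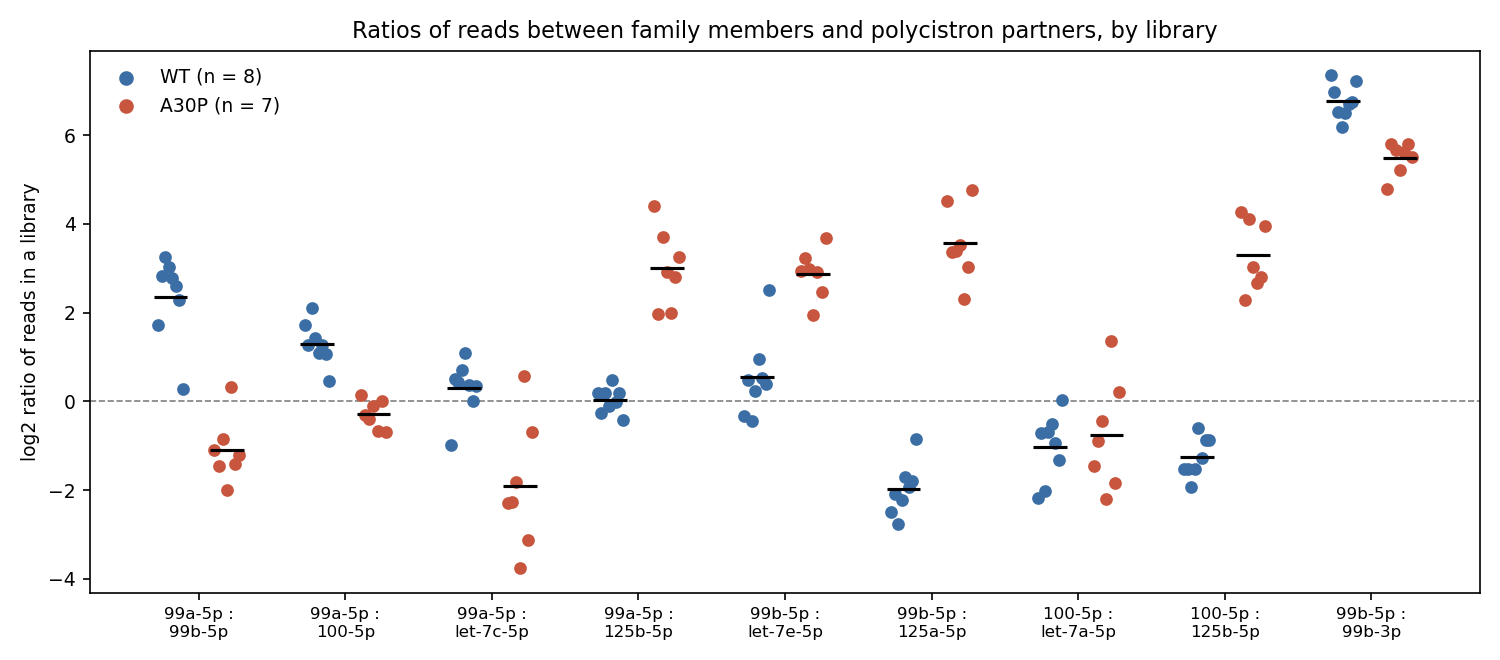
Log2 ratio of reads (0.5 added to each) for 9 pairs of arms, 1 point per library (WT n = 8, A30P n = 7), with the group mean as a line and equality dashed at 0. The ratios of miR-99a-5p, miR-99b-5p and miR-100-5p to their miR-125 partner separate the groups completely, while miR-100-5p to let-7a-5p does not.

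Within the Mir99a polycistron, 5 of 6 arms were listed, of which 4 fell and 1 did not pass the test, in a table where 71.0% of miRNAs were called lower. let-7c-5p, the let-7 partner, ran from 17072 to 64167 normalized counts in WT and from 9784 to 41807 in A30P, with a log2 fold change of -0.30 (limma adjusted p = 0.42). Its groups overlapped widely in normalized counts. Its share of listed reads was 4.58% in WT and 2.28% in A30P and passed the test (exact permutation test, adjusted p = 0.017). The authors' deposited table gave a log2 fold change of -1.69 with an adjusted p of 0.0012. miR-125b-5p ran from 27611 to 51737 in WT and from 282 to 3674 in A30P, with a log2 fold change of -5.52 (limma adjusted p = 7.2e-09). The passenger arms let-7c-1-3p and miR-125b-2-3p also fell, with reads in 1 and 3 of the 7 A30P libraries, so their fitted sizes depend on the pseudocount. By edgeR with TMM scaling 3 of the 5 arms fell, against 35.5% of miRNAs tested, and miR-125b-2-3p was not called (adjusted p = 0.94).

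miR-99a-5p and miR-125b-5p were almost level in WT, with a ratio of 0.752 to 1.40, and stood 3.89 to 21.3 apart in A30P, where miR-99a-5p was the higher. The log2 difference between groups was 2.97 (exact permutation test, adjusted p = 0.00062), and the groups did not overlap. Against let-7c-5p it moved the opposite way, from a geometric mean ratio of 1.24 in WT to 0.267 in A30P (log2 difference -2.22, exact permutation test, adjusted p = 0.0044). Here A30P 6, at 1.49, and A30P 8, at 0.617, lay within the WT range of 0.505 to 2.13. Without the 4 shallow A30P libraries the difference was -0.96 (adjusted p = 0.17). By limma with 1 added and by edgeR with TMM scaling, the log2 fold change of miR-99a-5p lay between those of let-7c-5p and miR-125b-5p. In the authors' deposited table it did not, at -1.27 against -1.69 for let-7c-5p and -3.61 for miR-125b-5p.

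Within the Mir99b polycistron all 6 arms were listed, of which the 2 miR-99b arms rose and the other 4 fell, against 8.33% of all miRNAs called higher and 71.0% lower. let-7e-5p ran from 3111 to 12448 normalized counts in WT and from 1156 to 2427 in A30P, with a log2 fold change of -1.42 (limma adjusted p = 0.00071). miR-125a-5p ran from 19793 to 55230 in WT and from 551 to 2339 in A30P, with a log2 fold change of -4.63 (limma adjusted p = 4.1e-09). Neither had overlapping groups in normalized counts, as for 23.7% of listed miRNAs in the lower direction. let-7e-3p had reads in 1 A30P library and miR-125a-3p in 4, against all 8 WT libraries for both. By edgeR with TMM scaling the 2 miR-99b arms rose and 2 of the other arms fell, let-7e-3p and miR-125a-5p, against 19.5% higher and 35.5% lower among miRNAs tested.

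The hairpins of miR-99b and miR-125a lie within the same 692 bases, and their ratio moved furthest of all. miR-99b-5p was present at 0.148 to 0.556 reads for each read of miR-125a-5p in WT and at 4.97 to 27.0 in A30P. The geometric mean went from 0.254 to 11.8, a log2 difference of 5.54 (exact permutation test, adjusted p = 0.00062). Against let-7e-5p, whose hairpin starts 94 bases after that of miR-99b, the geometric mean ratio went from 1.45 to 7.36 (log2 difference 2.34, exact permutation test, adjusted p = 0.0011). WT 8, at 5.70, was the WT library that reached the A30P range of 3.83 to 12.9.

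In the Mir100 polycistron 4 of 6 arms were listed, of which miR-100-5p, let-7a-5p and miR-125b-5p fell and miR-125b-1-3p rose, against the same 71.0% lower and 8.33% higher. By edgeR with TMM scaling miR-125b-5p fell, miR-125b-1-3p rose, and miR-100-5p and let-7a-5p (log2 fold change -0.29, adjusted p = 0.54) were not called. let-7a-5p ran from 15403 to 44447 normalized counts in WT and from 8868 to 17163 in A30P, with a log2 fold change of -1.22 (limma adjusted p = 0.00037). miR-125b-1-3p, the passenger arm that belongs to this locus alone, rose from 286 ± 100.4 in WT to 613 ± 190.9 in A30P (SD, n = 8 and n = 7), with a log2 fold change of 1.09 (limma adjusted p = 0.024). Its share of listed reads was 0.0462% in WT and 0.0548% in A30P, a difference that missed the threshold (exact permutation test, adjusted p = 0.53). The authors' deposited table gave it a log2 fold change of -0.18 with an adjusted p of 0.65. The ratio of miR-100-5p to miR-125b-5p went from a geometric mean of 0.417 to 9.80 (log2 difference 4.56, exact permutation test, adjusted p = 0.00062). The ratio to let-7a-5p was 0.487 in WT and 0.594 in A30P (log2 difference 0.29, exact permutation test, adjusted p = 0.59), and without the 4 shallow A30P libraries the difference was 1.41 (adjusted p = 0.030).

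**Figure D4:**
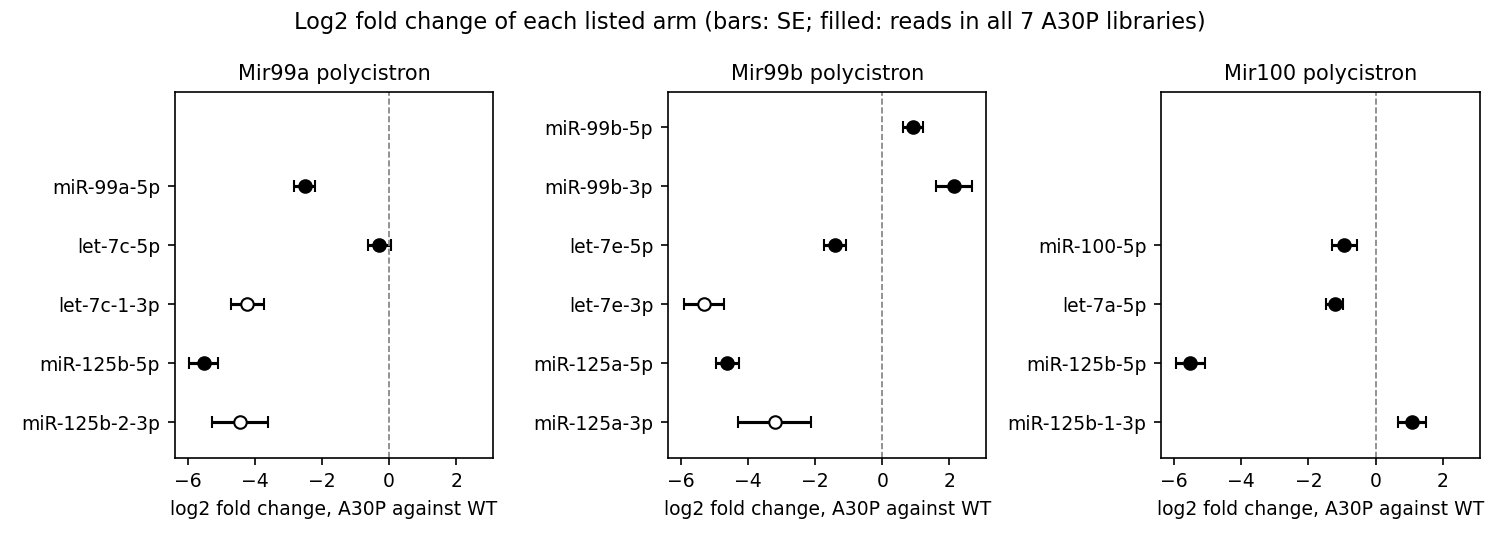
Log2 fold change (A30P against WT, limma on log2(normalized count + 1)) with its SE for each listed arm of the Mir99a, Mir99b and Mir100 polycistrons. Filled points have reads in all 7 A30P libraries and open points do not, and the miR-99b arms and miR-125b-1-3p are to the right of 0.

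Whether the miR-99 to miR-125 shift differed between the polycistrons was tested as a ratio of ratios. The ratio of miR-99a-5p to miR-125b-5p, divided by that of miR-99b-5p to miR-125a-5p, ran from 1.35 to 7.69 in WT and from 0.355 to 1.24 in A30P. The groups did not overlap. The log2 difference was -2.56 (exact permutation test, adjusted p = 0.00062), so the shift was larger at Mir99b than at Mir99a, with reads of miR-125b-5p from Mir125b-1 included in the latter.

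Both arms of the miR-99b hairpin rose in normalized counts, the 3p arm by more. The ratio of 5p to 3p reads was 72.5 to 162 in WT and 27.7 to 55.7 in A30P, without overlap, and its geometric mean went from 109 to 44.7. How many other hairpins had ratios without overlap was not examined. The 3p arm had only 4 reads in A30P 4 and A30P 7, 13 in A30P 2 and 28 in A30P 1. In limma over the 93 hairpins with both arms listed, the log2 difference was -1.29 (SE 0.44, adjusted p = 0.015). In that comparison 30.1% of hairpins shifted toward the 5p arm and 30.1% toward the 3p arm, so a shift was common. The 5p arm still held nearly all reads of the hairpin in both groups.

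The wider family of related seeds is represented by miR-10a-5p and miR-10b-5p, which lie in the Hox gene clusters. Their sequences are shown because their seed, ACCCUGU, opens with the same 4 bases as ACCCGUA:
miR-10a-5p: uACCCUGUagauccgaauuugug
miR-10b-5p: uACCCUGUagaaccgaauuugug
miR-10a-5p shares a run of 10 bases, GUAGAUCCGA, with miR-99a-5p, which starts at base 6 of miR-99a-5p and at base 7 of miR-10a-5p. Both miR-10 arms rose, as 8.33% of all miRNAs did, and neither had overlapping groups, as for 4.04% in that direction. miR-10a-5p ran from 95.0 to 226 normalized counts in WT and from 512 to 1708 in A30P (log2 fold change 2.31, limma adjusted p = 0.00011). miR-10b-5p ran from 91.8 to 278 in WT and from 681 to 3778 in A30P (log2 fold change 3.20, limma adjusted p = 5.2e-06).

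The miRNAs most like each member across the 8 WT libraries were ranked by Pearson's r of log2(normalized count + 1) among 306 candidates. The libraries share their depth and scaling, so these r are descriptions without a test. miR-99a-5p was most like miR-24-1-5p (r = 0.97), miR-195a-5p (0.96), miR-338-5p (0.95), miR-26a-5p (0.94) and miR-24-2-5p (0.94). The r over the 7 A30P libraries were 0.88, 0.79 and 0.61 for the last 3 of these. miR-24-1-5p and miR-195a-5p had reads in only 3 and 2 A30P libraries, and no r is given for them there. miR-100-5p was most like miR-181a-1-3p (0.98) and miR-219a-2-3p (0.94), then miR-127-3p, miR-30a-3p and miR-30c-2-3p (0.85 to 0.82). In A30P the last pair had r of -0.59 and -0.60 with miR-100-5p, and miR-127-3p had 0.96.

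miR-99b-5p was most like miR-151-3p (r = 0.99), miR-671-3p (0.98), miR-1964-3p (0.98), miR-1981-5p (0.98) and miR-129-5p (0.97) in WT. In A30P its r with miR-151-3p was 0.17, and that with miR-671-3p was 0.85. miR-99b-3p was most like miR-195a-3p (0.91), miR-106b-3p (0.90), miR-1964-3p (0.89), miR-501-3p (0.87) and miR-129-5p (0.86). WT 8 was the highest WT library for both miR-99b arms, with 17748 normalized counts of miR-99b-5p against at most 9885 in the others. How far the WT r of both arms rest on that library was not examined.

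The balance between the paralogs moved with depth inside A30P, while in WT the relation rested on 2 libraries. Depth was examined after the values had been seen. In A30P the log2 ratio of miR-99a-5p to miR-99b-5p rose with the log10 of listed reads, with Pearson's r = 0.90 (exact permutation test, p = 0.0063, adjusted p = 0.013 over 4 relations) and Spearman's rho = 0.75 (exact permutation test, p = 0.066). It was 0.81 without the 2 libraries farthest from the median depth. In WT r was 0.74 (exact permutation test, p = 0.040, adjusted p = 0.053) and rho 0.43 (exact permutation test, p = 0.30), and r was -0.065 without the 2 farthest libraries, so the relation there rests on them.

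The same ratio also moved with the joint share of miR-148a-3p and miR-151-3p inside A30P, but not clearly inside WT. In A30P r was -0.93 (exact permutation test, p = 0.0022, adjusted p = 0.0087), rho was -0.93 (exact permutation test, p = 0.0067), and r was -0.66 without the 2 farthest libraries. In WT r was -0.79 (exact permutation test, p = 0.086, adjusted p = 0.086) and rho -0.31 (exact permutation test, p = 0.46), and r turned to 0.52 without the 2 farthest. The part of depth in the difference between genotypes was not tested further. Over the A30P libraries with at least 100000 reads (3, 6 and 8) against WT, the log2 difference of the ratio was -2.92 (exact permutation test, adjusted p = 0.029).

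**Figure D5:**
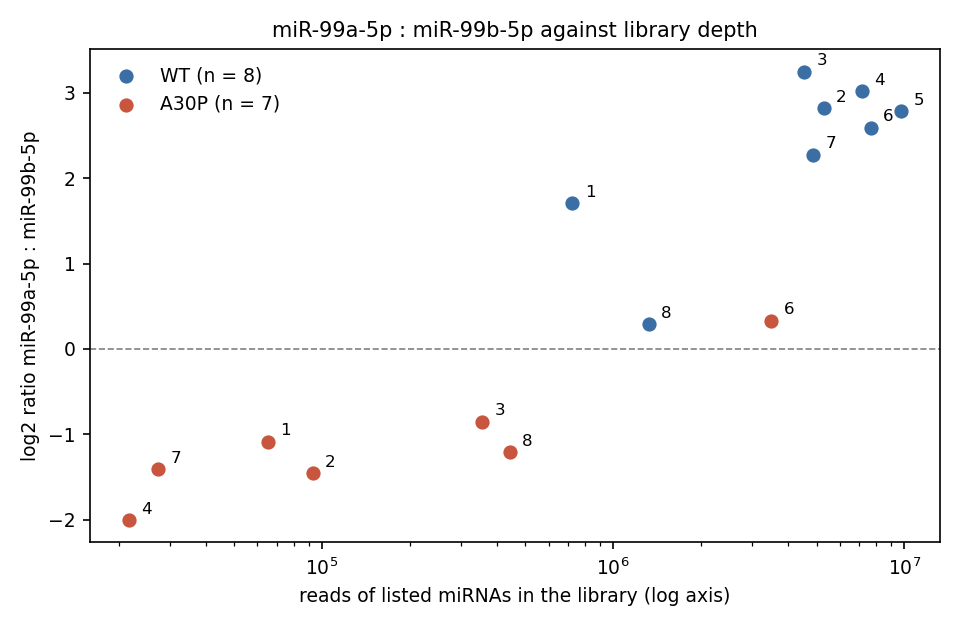
Log2 ratio of miR-99a-5p to miR-99b-5p reads against the reads of listed miRNAs in each library (log axis), labelled with replicate numbers. A30P 6, at 3500431 reads, lies next to WT 8, at 1326236 reads, while all other A30P libraries lie below 0 and all other WT libraries at 1.71 or above.

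Some marker miRNAs of cell types and tissues differed between the groups and others did not. Of all listed miRNAs, limma called 8.33% higher and 71.0% lower. The part of these markers in the family's values was not tested. Of 4 neuronal names 3 were listed (miR-124-3p, miR-9-5p and miR-128-3p). Their sum was 36266 to 172503 normalized counts in WT and 5305 to 50458 in A30P, with miR-124-3p at 0 reads in A30P 4. All 3 were called lower, with log2 fold changes of -4.47, -2.40 and -3.14 in that order (limma adjusted p = 0.00028, 0.00079 and 3.6e-08). Of 5 oligodendrocyte names miR-219a-2-3p and miR-338-3p were listed, with a sum of 2952 to 7943 in WT and 1298 to 5282 in A30P. miR-338-3p was at 0 in 4 A30P libraries and was called lower (limma adjusted p = 0.00038). miR-219a-2-3p, with means of 4932 and 3177, was not called (limma adjusted p = 0.059). None of 5 microglial and immune names was listed. The vascular list (3 of 7 names listed) held between 2918 and 15953 in WT and between 4628 and 18851 in A30P, with miR-145a-5p at 0 in 3 A30P libraries. Its members moved in opposite directions. miR-143-3p rose from a mean of 3126 to 10046 (limma adjusted p = 0.0013). miR-126a-3p fell from 6279 to 1201 (limma adjusted p = 0.00044), and miR-145a-5p also fell (limma adjusted p = 0.0018). The erythroid list (3 of 6) held between 317 and 1534 in WT and between 223 and 2459 in A30P, with miR-144-5p at 0 in 6 A30P and 2 WT libraries. Its most abundant entry in WT, listed under a combined name for miR-486a-5p and miR-486b-5p, had means of 634 and 432 (limma adjusted p = 0.47), and miR-451a rose from 78.5 to 602 (limma adjusted p = 0.033). The muscle list (2 of 3) held between 179 and 2448 in WT and between 339 and 2855 in A30P. Most of that sum was miR-1a-3p, with means of 992 and 1137 (limma adjusted p = 0.92). miR-206-3p rose from a mean of 30.7 to 174 (limma adjusted p = 0.011). The single liver miRNA, miR-122-5p, held between 9.72 and 44.7 in WT and between 0 and 68.2 in A30P. The single choroid plexus miRNA listed, miR-204-5p, held between 994 and 3338 in WT and between 51.2 and 734 in A30P.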

How the data were processed

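Small RNA of 15 midbrain samples was sequenced. The labels' protocols name Trizol extraction and a TruSeq small RNA kit, but the column headers begin with NEB, which leaves the kit uncertain. DESeq and the build mm9 are named in the submitters' processing notes. No aligner or counter is named there. A single table was deposited, of 396 miRNAs (4 under a combined name). Columns named CT, per the file headers, were taken as the WT libraries with the same numbers. The signal values the authors deposited for each library are read counts divided by a size factor. Each was a whole multiple of the library's step (100% within 1e-05), so whole reads were recovered. The authors also deposited log2 fold changes with their standard errors, and a p-value and adjusted p-value for each miRNA, printed only where their table is named.

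The main test was limma 3.58.1 (trend, robust) on log2(value + 1). A minimum group mean of 1 kept all 396 miRNAs. P-values were adjusted by Benjamini-Hochberg, with a threshold of 0.05. On this scale the fold change of a low miRNA depends on the value added. The median log2 fold change over all miRNAs was -4.34 with 0.1 added and -1.07 with 10 added. edgeR 4.0.16 and DESeq2 1.42.0 ran on the recovered reads as alternatives (R 4.3.3). Ratios (0.5 reads added) and shares were compared by exact permutation over 6435 splits (scipy 1.17.1, numpy 2.4.6, pandas 2.3.3, Python 3.11.15), and plots used matplotlib 3.10.9. The fits were run on simulated data, where a pass mark was set only for limma at equal depth. The simulation lacked the miR-148a-3p and miR-151-3p excess of A30P, so it does not show how the fits perform on these libraries. Intervals are 95% Wilson and, like floors of 3 reads (169 normalized counts in A30P 4), cover counting error only.

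The family, the polycistron and marker lists, and the rule for named miRNAs (members, partners, miR-10 relatives and the 5 most alike per member) were chosen with earlier results of these data known. miR-100-5p, its 4 ratios, the adjustment of shares over all miRNAs and the relations with depth were added after the table was opened. Other scalings, pseudocounts, filters, left-out libraries and the replicate number as a block were tried as alternatives.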

Additional observations from a re-analysis of the deposited data

Results flagged for a closer look

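In 38 groups of values tested for a library far from the others, 9 had such a library. Chance gives about 1 in 20 for a single group. The groups repeat the same reads as counts, shares and ratios, so the 9 cannot be set against that rate. All 9 came from WT 8 or A30P 6.

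WT 8, the second shallowest WT library, stood apart in the miR-99b arms. It held 17748 normalized counts of miR-99b-5p, against 4283 to 9885 in the other WT libraries, which is 4.27% of its listed reads against at most 1.69%. It held 119 normalized counts of miR-99b-3p, against 46.7 to 67.8, or 0.0286% of its reads against at most 0.0103%. Its log2 ratio of miR-99b-5p to let-7e-5p was 2.51, with 0.94 the next highest. Its log2 ratio of ratios between the Mir99a and Mir99b polycistrons was 0.43, with 1.82 the next lowest.

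A30P 6, the deepest A30P library, stood apart in miR-99a-5p and miR-100-5p. Its share of miR-99a-5p was 2.40%, against 0.189% to 1.04% in the other A30P libraries. It held 23186 normalized counts of miR-100-5p, against 2483 to 10330, or 3.80% of its listed reads against at most 1.36%. That normalized count was above the highest WT library, 19773, while its share was within the WT range.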

How the results depend on the processing

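Of 421 repeats of 20 results under another setting, 395 kept direction and call, and 12 results did so throughout. These include the differences of miR-99a-5p and miR-99b-3p, their shares, the ratio of miR-99a-5p to miR-99b-5p, every ratio to a miR-125 partner and the 5p to 3p ratio. The count of calls over all miRNAs was 314 and fell to 175 (62 higher, 113 lower) by edgeR with TMM scaling.

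miR-100-5p was the least stable member. Its log2 fold change turned to 0.19 with TMM scaling and 0.39 by edgeR with TMM scaling, and lost its call scaled to the total without miR-148a-3p and miR-151-3p (-0.082), by edgeR with the deposited size factors (-0.67), by DESeq2 (-0.67) and without the 4 shallow A30P libraries (-0.063). Leaving out a library gave -1.21 to -0.67. For miR-99b-5p the call was lost scaled to the total of listed reads (0.24) and without the shallow libraries (0.98). Without those libraries, which leaves 3 A30P samples, miR-99a-5p to let-7c-5p (-0.96) and miR-100-5p to miR-99b-5p (-1.04) lost their call and miR-100-5p to let-7a-5p gained it (1.41). The last ran from -0.065 to 0.53 when a library was left out.

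The share of miR-100-5p differed by 0.026 percentage points with miR-148a-3p and miR-151-3p left out, and by -1.57 to -0.88 leaving out a library. That of miR-99b-5p differed by 2.22 without those miRNAs, 0.395 without the shallow libraries, 0.513 without WT 1 and WT 8, and -0.158 to 0.377 leaving out a library. The cause of these changes was not tested.

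The replicate numbers showed no clear pairing of the samples. The same-number r ran from -0.28 to 0.27 over 92 miRNAs, with 2 of 7 over 0.1, and 1 of 7 libraries was closest to its own number. A30P 1, 3, 4 and 7 were all closest to WT 1, the shallowest WT library. The check therefore does not settle whether samples of the same number belong together. With the replicate number as a block, log2 fold changes were -2.48 for miR-99a-5p, -0.87 for miR-100-5p (adjusted p = 0.049), 0.90 for miR-99b-5p and 2.16 for miR-99b-3p, 297 miRNAs were called, and each of the 10 ratios stayed on its side of the threshold. Depth limits the 3p arm most, at 4 reads in A30P 4 and A30P 7.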
